A study of Mus musculus with 6 samples.

Results

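Border macrophage and monocyte genes are 8 genes that were taken by name from the 18560 genes of a single-cell count table of the mouse olfactory bulb. Mrc1, Cd163, Lyve1, Pf4, F13a1 and Ms4a7 are known from macrophages of the meninges and vessel walls. Lyz2 and Cd52 are shared by many white blood cells. Their unique molecular identifiers (UMIs, each marking a single captured RNA molecule) were read in 5 immune clusters, which the deposited annotation names macrophage, monocyte, MicroG1, MicroG2 and MicroG3, in 33 other clusters and in 6 libraries.

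Olfactory bulbs of C57BL/6NJ mice were dissociated with papain after perfusion with saline, and some olfactory epithelium came along with the most anterior tissue. The control libraries (2) came from mice labelled as controls, with no manipulation given. The naris-occluded libraries (2) came from mice with a naris plugged on a single side. The study describes the bulb of the plugged side as its sample deprived of odor input. The trained libraries (2) came from mice that learned to discriminate odors for a water reward. The study describes water deprivation for the trained mice and for no other group, so training and water deprivation cannot be told apart. The methods give an age of 14 weeks and 6 weeks of manipulation. Each library was a pool of 3 mice, so single animals cannot be told apart. The study describes its controls both as naive mice and as the open side of occluded mice, and the labels do not settle which.

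Macrophages of the brain fall into microglia, which sit in the tissue itself, and border macrophages, which line the meninges, the spaces around vessels and the choroid plexus. Border macrophages take up proteins, hemoglobin and pathogens through scavenger and lectin receptors, and some carry the hyaluronan receptor LYVE1 while others carry class II proteins, which present antigen. Monocytes arrive from blood and can become macrophages or dendritic cells once they are in the tissue.

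Sequences at the start sites of the members were searched for a short motif, which some members held and others did not. Promoters of 300 bases (250 before the start and 50 after it) were taken from RefSeq on GRCm38.p6, where 6 of the 8 members matched. The letters GAGGAA, the core of sites bound by the macrophage factor PU.1, were searched on both strands. These 6 members have 8 promoters, of which 5, of Mrc1, Pf4, F13a1 and Ms4a7, held the letters, against 28.3% of all 32851 promoters. F13a1 counted with both of its promoters. Those of Cd163 and Lyz2 and the second promoter of Ms4a7 held no match, and the difference was not tested. A match is a description of these letters only. Mrc1 is shown because it held the most matches, at -180 to -175, at -167 to -162 and at -35 to -30 from the start, and Pf4 because its single match, at -8 to -3, lay next to the start. The capitals mark the motif, which reads TTCCTC here because it lies on the reverse strand.
Mrc1, chr2:14229164-14229463, plus strand: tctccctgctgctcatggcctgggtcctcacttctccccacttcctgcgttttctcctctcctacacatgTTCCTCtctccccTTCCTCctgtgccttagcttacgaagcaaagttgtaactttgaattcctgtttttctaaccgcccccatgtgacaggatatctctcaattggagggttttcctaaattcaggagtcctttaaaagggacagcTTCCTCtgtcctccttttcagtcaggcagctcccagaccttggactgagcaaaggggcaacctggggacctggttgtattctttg
Pf4, chr5:90772185-90772484, plus strand: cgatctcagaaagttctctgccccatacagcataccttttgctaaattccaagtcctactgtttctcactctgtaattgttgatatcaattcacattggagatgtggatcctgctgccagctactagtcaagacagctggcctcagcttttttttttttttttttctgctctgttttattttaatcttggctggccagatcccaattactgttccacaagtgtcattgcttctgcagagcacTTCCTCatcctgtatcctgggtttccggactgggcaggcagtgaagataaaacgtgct

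Lyz2 and its neighbor Lyz1 lie 5522 bases apart on chromosome 10. Their promoters are shown to describe the pair, while 3′ libraries are read at the other end of the transcript. Of the 300 promoter bases 201 were the same (67%). The capitals mark the longest stretch they share, 86 bases from -50 to 36.
Lyz2, chr10:117282223-117282522, minus strand: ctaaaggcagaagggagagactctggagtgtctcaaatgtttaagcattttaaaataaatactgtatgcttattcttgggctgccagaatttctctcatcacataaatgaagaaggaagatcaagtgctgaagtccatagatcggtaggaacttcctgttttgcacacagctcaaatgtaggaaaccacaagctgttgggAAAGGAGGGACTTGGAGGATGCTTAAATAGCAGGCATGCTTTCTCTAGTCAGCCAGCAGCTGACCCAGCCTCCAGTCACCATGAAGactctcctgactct
Lyz1, chr10:117292819-117293118, minus strand: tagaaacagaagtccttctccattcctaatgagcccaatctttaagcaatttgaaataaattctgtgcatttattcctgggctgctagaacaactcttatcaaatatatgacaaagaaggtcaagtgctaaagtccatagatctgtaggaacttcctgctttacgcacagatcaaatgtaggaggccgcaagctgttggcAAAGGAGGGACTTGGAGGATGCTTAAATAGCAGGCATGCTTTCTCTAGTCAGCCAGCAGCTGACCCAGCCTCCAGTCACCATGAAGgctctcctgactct
In the annotated transcripts, 15.4% of the 1264 stretches of 50 bases in Lyz2 were also in Lyz1, and in the last 300 bases, where 3′ libraries are read, 21.9%. The level of Lyz1 in the macrophage cluster was 17.2 ± 8.36 CPM (the UMIs of a gene scaled to the same total in every cluster and library; SD, n = 6), against 6098 ± 991 CPM for Lyz2, and reads from the shared stretches cannot be assigned to a neighbor with certainty.

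The table held 51426 cells with a cluster, 6705 to 10570 per library, with 11841160 to 17065083 UMIs per library. The median cell had 1028 to 1724 UMIs. The lowest of these medians, and the highest median mitochondrial share, 14.4% against 9.25% to 11.6% elsewhere, belonged to trained 1. Counts of Xist (0 to 5 UMIs in each replicate 1 and 20000 to 27904 in each replicate 2) and of Ddx3y, Eif2s3y, Kdm5d and Uty placed males in the replicate 1 pools and females in the replicate 2 pools. Of 49931 barcodes, 1461 occurred in more than 1 library, and 75 of the 1195 macrophage and monocyte cluster cells carried such a barcode.

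The macrophage cluster had 572 cells and the monocyte cluster 623, against 4001 in the 3 microglia clusters. The cluster names were checked with listed markers that are not members. Of 20 further border macrophage genes, all had UMIs in the macrophage cluster, and their summed level was 10980 ± 250 CPM there against 2164 ± 235 CPM in the monocyte cluster (SD, n = 6). The highest were Dab2, a clathrin adaptor (1250 ± 133 CPM), Wfdc17, a small secreted protein (1199 ± 353 CPM), Stab1, a scavenger receptor (1195 ± 55.4 CPM), and Maf, a transcription factor (1146 ± 55.1 CPM). The summed microglia genes were at 1157 ± 264 CPM in the macrophage cluster and at 18450 ± 1129 CPM in MicroG1. In the monocyte cluster the class II genes led, at 25928 ± 1102 CPM against 1027 ± 165 CPM in the macrophage cluster, with Cd74, the invariant chain, at 12797 ± 555 CPM. The 15 listed monocyte genes were at 3647 ± 697 CPM there against 1795 ± 320 CPM in the macrophage cluster. Ifitm3 (1167 against 1316 CPM) and Ms4a6c (364 against 396 CPM) were not higher there. S100a6 (662 against 48.1 CPM) and Ccr2 (387 against 1.96 CPM) were. The monocyte cluster also held neutrophil genes (11456 ± 8637 CPM) and microglia genes (2021 ± 414 CPM), so its name covers only part of its cells.

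The 6 border members were concentrated in the macrophage cluster. Of all UMIs in annotated cells, the macrophage cluster held 75.9% for Mrc1, 84.7% for Cd163, 88.5% for Lyve1, 80.4% for Pf4, 75.6% for F13a1 and 61.6% for Ms4a7. In 6 of 6 libraries each of them was higher there than in the monocyte cluster, and the ranges of the libraries did not overlap. The clusters were made from the expression of all genes, these included, so the levels are a description with no test.

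Among the scavenger and lectin receptors, Mrc1, the mannose receptor (chromosome 2, 14229414 to 14332023), was at 1292 to 1548 CPM in the macrophage libraries, with a mean of 1429 ± 96.9 CPM (SD, n = 6). In the monocyte cluster its level was 214 ± 44.2 CPM, 6.68-fold lower. The microglia clusters had means of 7.14 to 12.8 CPM, which overlapped with each other and with the highest of the other clusters, the mural cells Mural1 (11.6 ± 14.4 CPM).

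Cd163, the receptor for hemoglobin bound to haptoglobin, lies on chromosome 6, 124304636 to 124330529. Its level in the macrophage libraries was 358 to 666 CPM, with a mean of 460 ± 134 CPM. The monocyte cluster was 11.1-fold lower, at 41.4 ± 29.0 CPM, but its level depended on the libraries taken and was 11.9 CPM in the controls alone, against 380 and 359 CPM in their macrophage clusters. In microglia a single UMI was found, in MicroG2.

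Lyve1, the hyaluronan receptor first known from lymphatic vessels, lies on chromosome 7, 110850607 to 110862953, and was the most variable member between macrophage libraries, at 88.2 to 538 CPM with a mean of 217 ± 164 CPM. The monocyte cluster had 4 UMIs (2.94 ± 3.31 CPM), and the mesenchymal cluster Mes2, whose libraries overlapped with it, had 7 (8.79 ± 7.42 CPM). No UMI was found in the 4001 microglia, which allows at most 0.413 CPM over their summed counts. The lymphatic genes Prox1 and Pdpn had 4 and 3 UMIs in the macrophage cluster, and Flt4 had none.

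Pf4, a chemokine known from platelets and from border macrophages, lies on chromosome 5, 90772435 to 90773383. It was at 4723 to 5821 CPM in the macrophage libraries, with a mean of 5184 ± 453 CPM, and 8.49-fold lower in the monocyte cluster (611 ± 140 CPM). The platelet genes were near 0 in the macrophage cluster. Their sum was 0 to 12.8 CPM in the libraries, Ppbp had 3 UMIs and Itga2b none. Outside the immune clusters the neuron cluster N6 was highest for Pf4, at 39.2 ± 56.6 CPM, an SD larger than the mean.

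F13a1 encodes the A subunit of coagulation factor XIII, which cross-links fibrin, and lies on chromosome 13, 36867178 to 37050244. Its level was 486 to 614 CPM in the macrophage libraries (mean 566 ± 47.3 CPM) and 106 ± 37.3 CPM in the monocyte cluster, 5.34-fold lower. Microglia had no UMI of it. Ms4a7, a membrane protein of the MS4A family, lies on chromosome 19, 11321039 to 11336146, and was the closest of the 6 border members between the macrophage and monocyte clusters, with 852 ± 94.2 CPM against 329 ± 75.2 CPM, a 2.59-fold difference.

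Lyz2 and Cd52 had another order. Lyz2, the lysozyme of myeloid cells (chromosome 10, 117277541 to 117282272), was at 6339 ± 1928 CPM in the monocyte cluster and at 6098 ± 991 CPM in the macrophage cluster, with the macrophage cluster higher in 3 of 6 libraries, so these clusters did not differ beyond their spread. The microglia clusters followed at 886 ± 188 to 941 ± 171 CPM and overlapped with each other. The highest other cluster was the neuron cluster N15, at 63.0 ± 32.0 CPM.

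Cd52, a small surface glycoprotein of lymphocytes and monocytes (chromosome 4, 134093538 to 134095073), was lowest among immune clusters in the macrophage cluster. Its level was 1808 ± 268 CPM in the monocyte cluster, 16.3-fold higher than the 111 ± 23.7 CPM of the macrophage cluster. The microglia clusters lay between, at 287 ± 51.6 to 336 ± 111 CPM. Their lowest library, at 191 CPM, was above the highest macrophage library, at 153 CPM. The study lists its macrophage cluster as CD52 positive, while Cd52 was found in 14.7% of the cells of this cluster.

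**Figure D1:**
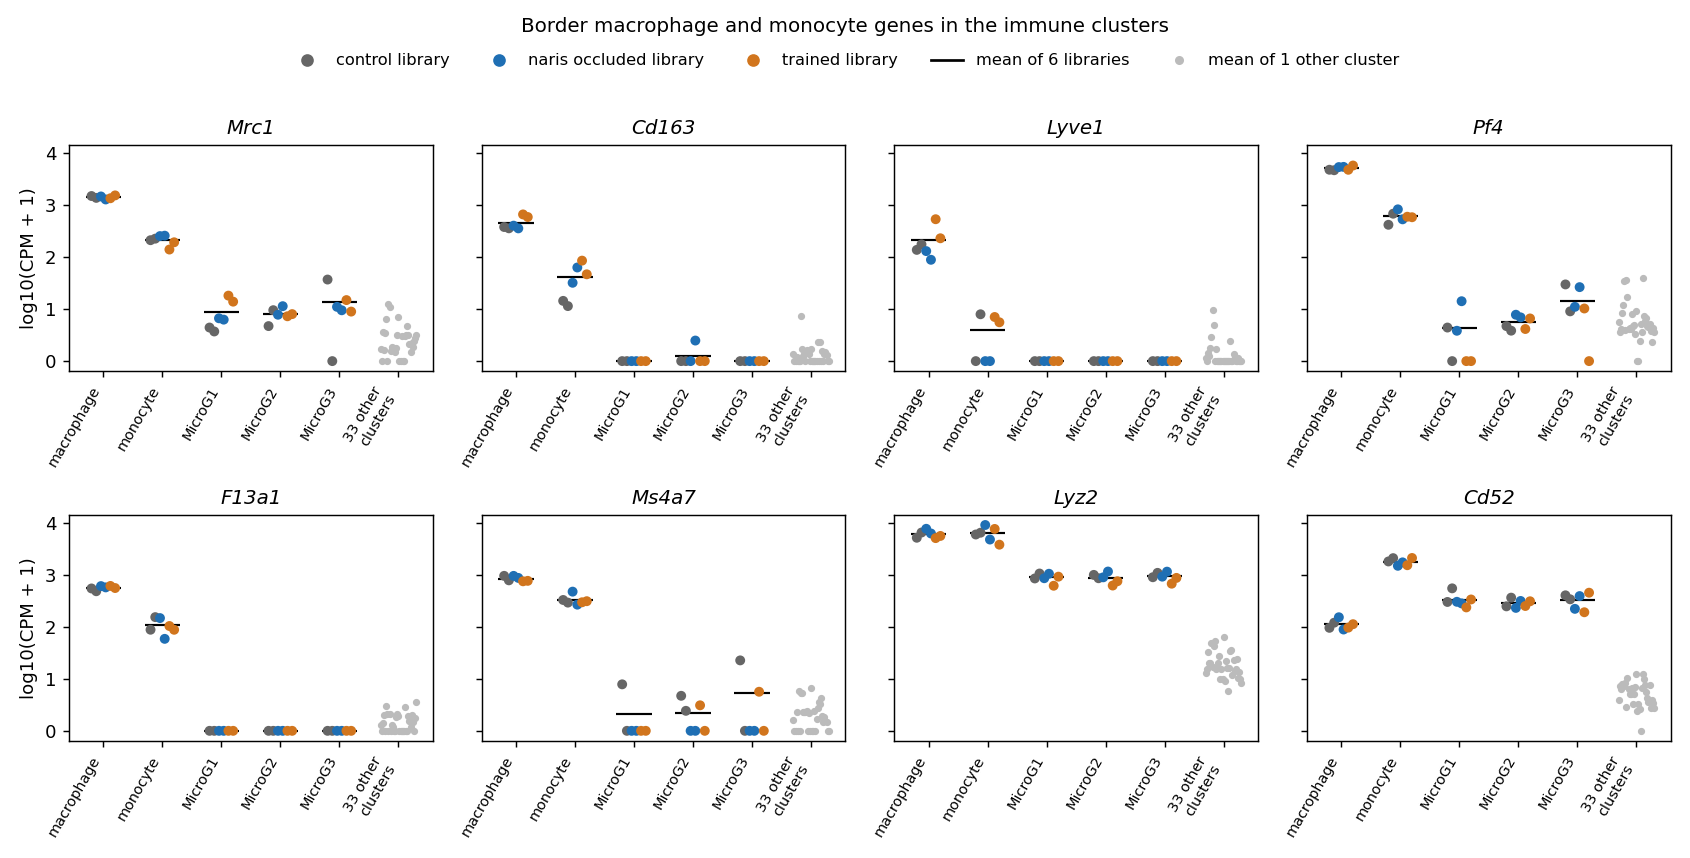
Level of each member, as log10(CPM + 1), in the 5 immune clusters and 33 other clusters. Colored points are the 6 libraries by condition, black lines their means and grey points the means of the other clusters; the 6 border members are highest in the macrophage cluster (Lyve1 at 217 CPM, Pf4 at 5184 CPM), Lyz2 is level between macrophage and monocyte clusters, and Cd52 is highest in the monocyte cluster.

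For the 6 border members, single cells of the macrophage cluster gave the same order as the summed counts. Lyz2, with similar summed levels in the macrophage and monocyte clusters, was found in 95.8% and 65.3% of their cells. In the macrophage cluster Pf4 was found in 93.9% of the cells, Mrc1 in 73.3%, Ms4a7 in 61.0%, F13a1 in 53.1%, Cd163 in 41.3% and Lyve1 in 21.7%. After each cell was thinned to 500 UMIs, so that depth was equal, the shares were 81.1%, 45.3%, 33.6%, 23.1%, 15.9% and 8.57%. As background, the 33 other clusters held a UMI in 0.0433% (Lyve1) to 0.655% (Pf4) of their cells, at a median of 1296 UMIs against 1630 in the macrophage cluster.

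Most macrophage cluster cells held several border members. Whether members occurred together beyond what their single shares give was not tested. At least 2 of the 6 were detected in 501 of 572 macrophage cluster cells (87.6%) and all 6 in 49 cells, while 11 cells had none. In the monocyte cluster 172 of 623 cells (27.6%) had at least 2, and in microglia 4 of 4001. In the 33 other clusters 23 of 46230 cells (0.0498%) did, and these cells held 22.8% of the border UMIs found there. Their median depth was 2938 UMIs against 1296, and the part of doublets and of free RNA in them was not tested.

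**Figure D2:**
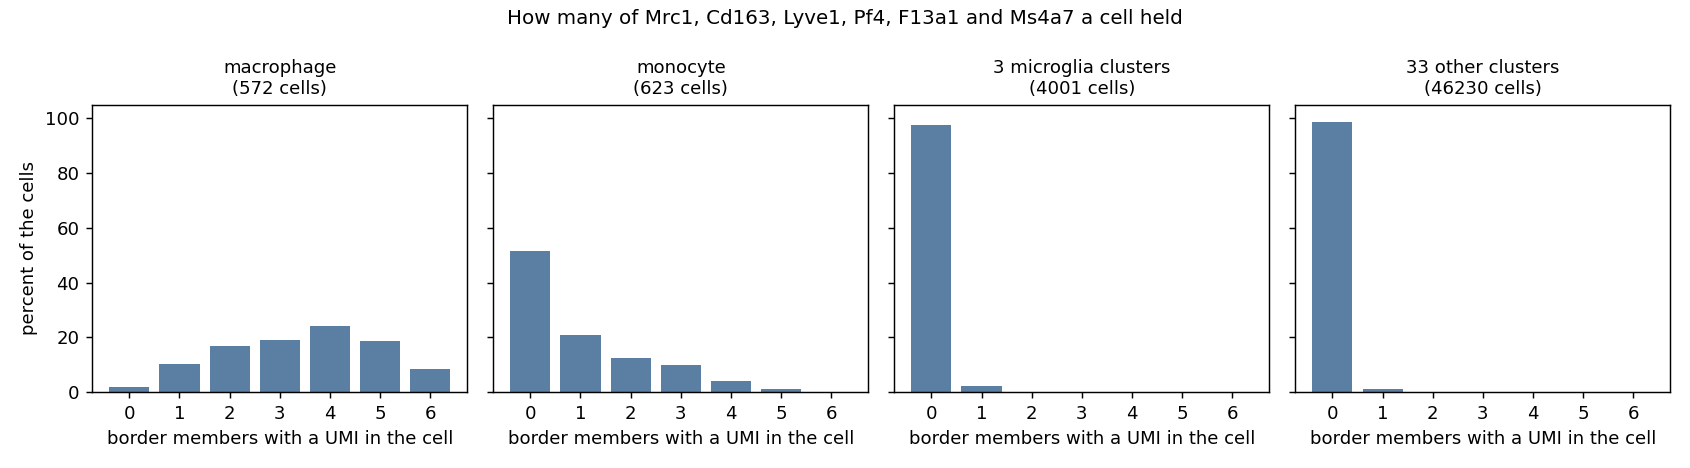
Percent of cells (vertical axis) by how many of the 6 border members had a UMI in the cell (horizontal axis, 0 to 6), for each group of clusters with its number of cells. Macrophage cluster cells center on 4 members, monocyte cluster cells are mostly at 0 or 1, and cells of the microglia and other clusters sit almost entirely at 0.

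Within the macrophage cluster, Cd163 was more frequent in cells that had Lyve1. Cd163 was detected in 60.5% of the 124 cells with Lyve1 and in 35.9% of the 448 cells without, and the same direction held in 6 of 6 libraries. The level of Cd163 was 604 CPM in the cells with Lyve1 and 391 CPM in the others, and the cells with Lyve1 were deeper (a median of 2271 against 1443 UMIs). The trained libraries, where both genes were higher, held 35 and 21 of the 124 cells. Within libraries Cd163 was at 457 against 359 CPM and 469 against 330 CPM in the controls, 505 against 375 CPM and 387 against 352 CPM in the naris-occluded, and 747 against 570 CPM and 778 against 474 CPM in the trained libraries, and it was higher in the cells with Lyve1 in each of the 6. Mrc1 was likewise found in 87.7% of the cells with Cd163 and in 63.1% of those without, at 1688 and 1180 CPM over the libraries summed, and the former cells were deeper (a median of 2028 against 1179 UMIs).

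Class II genes and Lyve1 did not divide the macrophage cluster cleanly. The monocyte cluster lay outside this comparison, with summed class II genes at 25928 CPM against 1027 CPM in the macrophage cluster, and with 4 Lyve1 UMIs. Of the 77 macrophage cluster cells with a UMI of the class II genes H2-Aa, H2-Ab1 or H2-Eb1, 19.5% had Lyve1, against 22.0% of the 495 others, and the direction varied between libraries (higher in 2 of 6). As a level, Lyve1 was at 132 CPM in the former on 22 UMIs and at 218 CPM in the latter. Cd52 did follow class II, with 33.8% against 11.7% of the cells and 204 against 94.6 CPM. The share was higher in 6 of 6 libraries, and the cells with class II were deeper (a median of 2054 against 1543 UMIs).

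The monocyte cluster was a mixture, and the members lay in different cells of it. Its cells were sorted by rules set after the data were seen. The complement genes C1qa, C1qb and C1qc, which tissue macrophages make, had 3 or more UMIs in 348 of the 623 cells (55.9%). Of these, 281 also had 10 or more UMIs of the class II genes Cd74, H2-Aa, H2-Ab1 and H2-Eb1. Among the cells with no C1q UMI, T and NK cell genes marked 108 (17.3%), neutrophil genes 29, B cell genes 22, and the monocyte genes Ccr2, Ly6c2, Plac8 or Chil3 33. Another 56 cells had 1 or 2 C1q UMIs and thus lay near the boundary.

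Mrc1, Cd163, Pf4 and Ms4a7 of the monocyte cluster lay almost wholly in the cells with 3 or more C1q UMIs. These cells held 97.7% of the Mrc1, 98.1% of the Cd163, 99.6% of the Pf4 and 99.6% of the Ms4a7 UMIs of the cluster, but 57.2% of the F13a1 UMIs and 3 of the 4 Lyve1 UMIs. Mrc1, at 355 ± 65.2 CPM in them (238 to 411 in the libraries), and Pf4, at 1031 ± 194 CPM (772 to 1350), were below the macrophage cluster without overlap between libraries. Ms4a7, at 559 ± 116 CPM (460 to 772), overlapped with the macrophage libraries (755 to 962), and the 67 of these cells with little class II were at 898 CPM against 864 CPM over the summed macrophage cluster. The class II genes Cd74, H2-Aa, H2-Ab1 and H2-Eb1 were not in the C1q rule, but the clusters were made from all genes, these included. As a description, they were at 36894 CPM in the cells with 3 or more C1q UMIs and at 837 CPM in the macrophage cluster. The 67 cells with little class II were not without it, at 2095 CPM.

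F13a1, Lyz2 and Cd52 extended beyond them. F13a1 was at 81.5 ± 84.6 CPM in the cells with no C1q UMI (0 to 173 in the libraries, with 0 in naris-occluded 2 and trained 2), which overlapped with 109 ± 39.5 CPM in the cells with 3 or more (49.4 to 150). Of its 40 UMIs in the former, 31 lay in the 33 cells with Ccr2, Ly6c2, Plac8 or Chil3. Summed over libraries, Lyz2 was at 9451 CPM in these 33 cells and at 8156 CPM in the cells with 3 or more C1q UMIs, and it had no UMI in the 108 cells with T and NK cell genes. Cd52 was found in 98.1% of those 108 cells, at 3415 CPM. In the cells of the monocyte cluster with no C1q UMI, Cd52 was at 2742 ± 370 CPM and in those with 3 or more at 1198 ± 357 CPM, without overlap between libraries (2219 to 3197 against 785 to 1685).

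**Figure D3:**
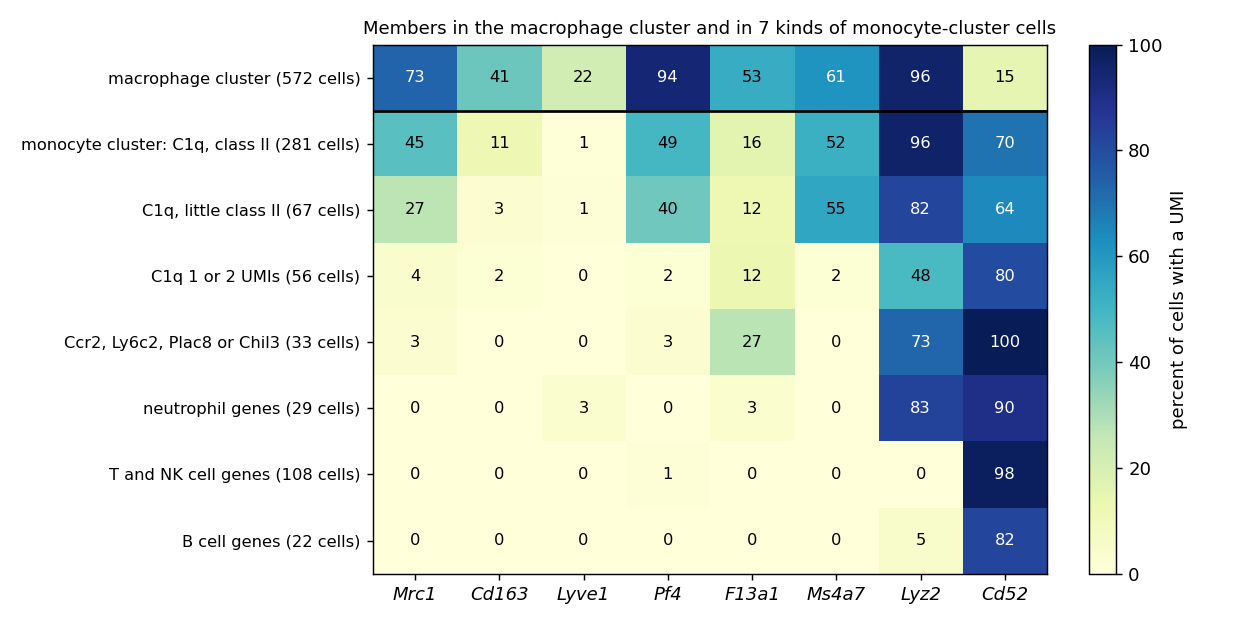
Percent of cells with a UMI of each member (color) in the macrophage cluster and in 7 kinds of monocyte cluster cells (rows, with their numbers), leaving out 6 cells with class II but no C1q and 21 below every threshold. Pf4, Mrc1 and Ms4a7 lie almost wholly in the macrophage row and the rows with 3 or more C1q UMIs, Lyz2 spans myeloid rows, and Cd52 is in 98.1% of the T and NK row.

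The genes most like each member were named by likeness over clusters, which was the Pearson correlation of mean log2(CPM + 1) over 38 clusters among 9152 genes, which share libraries and depth and are given as a description. For Mrc1 the closest were Msr1 (r = 0.95), Wfdc17 and AI607873. For Cd163 they were the lectin gene Cd209a (0.97), Nlrc4 and Cd209f, and for Lyve1 the lectin genes Cd209g (0.89), Cd209b and Clec4n.

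For Pf4 the closest genes were the lectin gene Mgl2 (0.91), F630028O10Rik and Clec10a, for F13a1 Nlrc4 (0.94), Gm6377 and Rgs18, and for Ms4a7 Clec12a (0.93), F630028O10Rik and Mgl2. Lyz2 was nearest to Ms4a6b (0.97), Epsti1 and Fcer1g, an Fc receptor chain, and Cd52 to Ly86 (0.95), Tyrobp and Aif1, genes found in all macrophages. Between members, the border pairs ranged from 0.71 to 0.92. Lyz2 and Cd52 were at 0.93, and Lyve1 and Cd52 at 0.31.

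Naris occlusion and odor training were compared in the macrophage cluster to ask whether these genes differ between the conditions. UMIs were summed per library and tested with edgeR's quasi-likelihood test, with Benjamini-Hochberg adjustment over all 2738 genes tested and a call at an adjusted p under 0.05. All 8 members passed the filter on low counts. In this fit Lyve1 was the only member called, and between trained and naris-occluded libraries only.

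Lyve1 in the macrophage cluster was at 137 and 176 CPM in the controls, 130 and 88.2 CPM in the naris-occluded libraries, and 538 and 230 CPM in the trained libraries. Both trained libraries were above the other 4, and trained 1 was far above trained 2. Trained exceeded naris-occluded libraries by 1.78 ± 0.34 on the log2 scale (SE, edgeR adjusted p = 0.0215). Against controls the difference was 1.30 ± 0.33 (adjusted p = 0.401). With the replicate number, which follows the sex of the pools, as a block, it was 1.28 and was called (edgeR adjusted p = 0.00953). Without the block no other fit of all 6 libraries called this difference. It was 1.27 in DESeq2, 1.29 with DESeq2 size factors in edgeR (adjusted p = 0.433) and 1.29 without the filter on low counts (edgeR adjusted p = 0.0585). In cells with at least 1000 UMIs it was 1.44 (edgeR adjusted p = 0.241), and with the macrophage and monocyte clusters summed 1.62 (adjusted p = 0.647). With only the 4 libraries compared it was 1.28 (edgeR adjusted p = 0.544). When a library was left out it ranged from 0.58 without trained 1 to 1.75 without trained 2. Between naris-occluded and control libraries it was -0.48 ± 0.38 (adjusted p = 0.988).

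The call was lost without trained 1 and in some other fits, and the molecules were few. With only the 4 libraries compared in the fit, the difference of trained from naris-occluded libraries was 1.79 on the log2 scale (edgeR adjusted p = 0.205). Without trained 1 the difference between trained and naris-occluded libraries was 1.06 on the log2 scale (edgeR adjusted p = 0.413), and in DESeq2 it was 1.76 with an adjusted p of 1. The UMIs were 26 and 25 in controls, 29 and 17 in naris-occluded and 84 and 35 in trained libraries. They came from many cells, since Lyve1 was found in 20 of 110, 17 of 87, 18 of 106, 13 of 108, 35 of 91 and 21 of 70 cells in the same order, and no cell had more than 6 UMIs. The share of cells was thus 38.5% and 30.0% in the trained and at most 19.5% in the other libraries. A share of cells also depends on depth. The median macrophage cluster cell had 1468 and 2121 UMIs in the trained, 1373 and 1365 in the control and 1798 and 1644 in the naris-occluded libraries. Leaving out the highest cell of each library left 499 and 191 CPM in the trained libraries against 72.7 to 155 CPM in the others.

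Other marks of the libraries moved with Lyve1 in part. The 10 dissociation response genes, led by Jun and Fos in this cluster, were lowest in trained 1 (4243 CPM) and highest in trained 2 (8798 CPM), with 4528 to 7530 CPM in the other libraries. The 4 neuron genes were highest in trained 1 (998 CPM) and at 474 to 682 CPM elsewhere. The 12 microglia genes were lowest in both trained libraries, at 730 and 1054 CPM against 1105 to 1511 CPM elsewhere. Of the 8 of them tested, 0 were called by edgeR, with median log2 differences of -0.61 from control and -0.45 from naris-occluded libraries. The class II genes were highest in trained 1 (1344 CPM against 866 to 1028 CPM), and the 13 genes found in all macrophages were lowest there (23931 CPM against 27210 to 29046 CPM). The 20 further border macrophage genes were at 10606 and 11156 CPM in the trained and 10903 to 11344 CPM in the other libraries. The part of these in the level of Lyve1 was not tested.

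Cd163 in the macrophage cluster was at 380 and 359 CPM in the controls, 404 and 358 CPM in the naris-occluded and 666 and 593 CPM in the trained libraries. In CPM the trained libraries did not overlap with the others. The difference of trained from control libraries was 0.76 ± 0.22 on the log2 scale (edgeR adjusted p = 0.401), and of trained from naris-occluded libraries 0.71 ± 0.22 (adjusted p = 0.383), so neither was called. The comparisons share their trained libraries. As a share of cells with Cd163 the libraries overlapped, at 44.0% and 48.6% in the trained and 34.5% to 44.3% in the other libraries.

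Lyz2 in the macrophage cluster was at 5209 and 6567 CPM in controls, 7744 and 6295 CPM in naris-occluded and 5127 and 5644 CPM in trained libraries. The trained libraries lay below the naris-occluded ones (log2 difference -0.39 ± 0.13, edgeR adjusted p = 0.442), a difference that was called without naris-occluded 2 (-0.55, adjusted p = 0.0446) and without trained 2 (-0.51, adjusted p = 0.00512). Mrc1 was at 1506 and 1387 CPM in controls, 1476 and 1292 CPM in naris-occluded and 1363 and 1548 CPM in trained libraries, and its groups overlapped. Pf4, F13a1, Ms4a7, Mrc1 and Cd52 had log2 differences of -0.28 to 0.20 in the 3 comparisons, and the edgeR adjusted p was at least 0.788 for each of these.

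**Figure D4:**
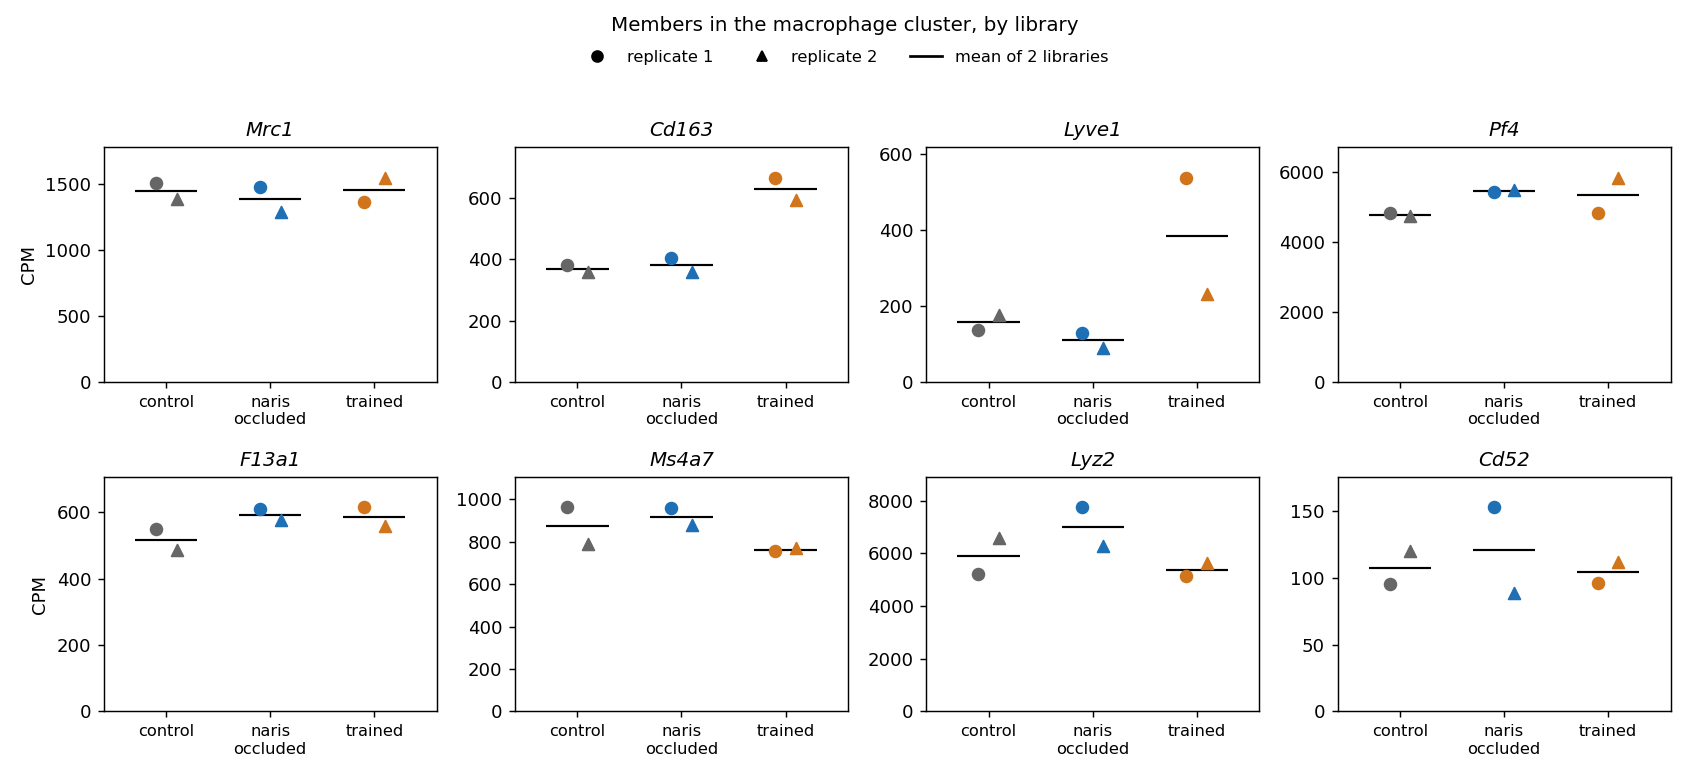
CPM of each member in the macrophage cluster (vertical axis from 0) by condition, with a circle for replicate 1, a triangle for replicate 2 and a line for the mean of 2 libraries. Lyve1 and Cd163 are higher in both trained libraries (538 and 230 CPM, 666 and 593 CPM) than in the other 4, and the remaining members differ less between conditions.

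In counts, the members called in the macrophage cluster were 0 of 8 between naris-occluded and control libraries, where 0.073% of all genes tested were called, 0 of 8 between trained and control libraries (0% of all genes) and 1 of 8 between trained and naris-occluded libraries (0.11%). At an unadjusted p under 0.05 edgeR had 0, 2 and 3 members, where 4.6%, 4.89% and 7.38% of all genes tested passed. At the same p DESeq2, run with no filter, also had 0, 2 and 3 members, against 0.181%, 0.293% and 0.348% of the 14355 genes with a UMI, and at an adjusted p under 0.05 it called no member. Here and in the populations below, genes with a UMI include many under the edgeR filter, so the DESeq2 shares are a low background for members. Of the 20 further border macrophage genes 18 were tested and 0 were called in each comparison. Their median log2 differences were 0.12, -0.02 and -0.18, against 0.01, 0.01 and -0.0020 for all genes tested and 0.13, 0.07 and -0.04 for the members.

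The other genes called in the macrophage cluster, named after their values were seen, were S100a5 and Calb2, genes of olfactory sensory neurons and of interneurons. S100a5 was at 724 and 866 CPM in controls, 242 and 104 CPM in naris-occluded and 1184 and 514 CPM in trained libraries. In all other annotated cells it was higher in each library, at 1256, 1199, 539, 208, 1262 and 757 CPM in the same order. Calb2 was at 74.0 and 84.5 CPM in controls, 296 and 291 CPM in naris-occluded and 109 and 39.5 CPM in trained libraries, and again higher in all other annotated cells, at 834, 648, 1056, 1053, 539 and 521 CPM. Lyve1 was at 0.199 to 0.599 CPM in all other annotated cells, highest in trained 1. The part of free RNA in the calls of these 3 genes was not tested.

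In the monocyte cluster 7 members were tested, since Lyve1 with 4 UMIs did not pass the filter. No member was called in any comparison (edgeR, 0 of 7 each), and 0% of the 3282 genes tested were. At an unadjusted p under 0.05 there was 1 member of 7 in each comparison in edgeR, against 3.41%, 4.14% and 4.69% of all genes tested. At the same p DESeq2 had 0, 1 and 0 members, against 0.134%, 0.161% and 0.195% of the 14902 genes with a UMI, and at an adjusted p under 0.05 it called no member. Cd163 had 13.4 and 10.5 CPM in controls, 31.2 and 62.4 CPM in naris-occluded and 84.9 and 45.9 CPM in trained libraries, on 52 UMIs in all. The controls were lowest, and the log2 differences from them were 1.96 ± 0.67 (edgeR adjusted p = 1) and 2.41 ± 0.66 (adjusted p = 0.991).

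Lyz2 in the monocyte cluster varied more within conditions than between them, at 6014 and 6516 CPM in controls, 9164 and 4812 CPM in naris-occluded and 7698 and 3831 CPM in trained libraries. Summed neutrophil genes ranged from 2385 to 24416 CPM and T and NK cell genes from 461 to 1431 CPM between libraries of this cluster, and their part in the spread was not tested. Among only the cells with 3 or more C1q UMIs, a restriction chosen after the data were seen, 0 of 7 members tested were called by edgeR in any comparison, as were 0% of the 1963 genes tested. At an unadjusted p under 0.05 there were 2, 2 and 0 members, against 3.82%, 2.8% and 4.38% of these genes.

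In the 3 microglia clusters summed, Mrc1, Lyz2 and Cd52 passed the filter and 0 of 3 were called in each comparison, as were 0% of the 9254 genes tested. At an unadjusted p under 0.05 there were 0, 1 and 1 members of 3 in edgeR, against 4.23%, 4.79% and 6.92% of all genes tested. At the same p DESeq2 also had 0, 1 and 1 members, against 0.299%, 0.384% and 0.719% of the 16403 genes with a UMI, and at an adjusted p under 0.05 it called no member. Lyz2 of MicroG2 was at 1003 and 865 CPM in controls, 901 and 1164 CPM in naris-occluded and 625 and 757 CPM in trained libraries, and the trained libraries were lowest. Over the summed clusters the trained libraries had a log2 difference of -0.51 ± 0.16 from naris-occluded libraries (edgeR adjusted p = 0.613, called without trained 2 at -0.74 with an adjusted p of 0.0489) and of -0.41 ± 0.16 from control libraries (adjusted p = 0.957).

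Over all annotated cells summed, fewer cells of a type and less RNA per cell cannot be told apart. All 8 members were tested and 0 were called by edgeR in each comparison, against 0.0064%, 0.0064% and 0.505% of 15635 genes for naris-occluded against control, trained against control and trained against naris-occluded libraries. There were 2, 3 and 4 members at an unadjusted p under 0.05 in edgeR, against 4.96%, 8.58% and 15.1% of all genes tested. At the same p DESeq2 had 1, 3 and 3 members, against 2.16%, 3.14% and 6.67% of the 18560 genes with a UMI, and at an adjusted p under 0.05 it called no member. Cd163 was again higher in trained than in control libraries, by 0.94 ± 0.16 on the log2 scale (edgeR adjusted p = 0.212). Without trained 2, Lyve1 (1.86, adjusted p = 0.0358) and Pf4 (-0.55, adjusted p = 0.0462) were called between trained and naris-occluded libraries.

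No difference in the numbers of cells was called in the clusters that hold the members. The macrophage cluster took 1.10% and 1.13% of the cells in controls, 1.45% and 1.18% in naris-occluded and 0.861% and 1.04% in trained libraries. Both trained libraries were below the other 4 without overlap, and the log2 difference from naris-occluded libraries was -0.47 ± 0.28 (edgeR on numbers of cells, adjusted p = 0.290). It was 0.24 ± 0.28 between naris-occluded and control (adjusted p = 0.741) and -0.23 ± 0.28 between trained and control libraries (adjusted p = 0.764). In these tests 2.63%, 0% and 21.1% of the 38 clusters were called for naris-occluded against control, trained against control and trained against naris-occluded libraries, and neither the macrophage nor the monocyte cluster was among them.

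The monocyte cluster took 1.37% and 1.31% of the cells in controls, 1.11% and 1.39% in naris-occluded and 0.804% and 1.37% in trained libraries, and the groups overlapped. Its log2 differences were -0.10 ± 0.29, -0.32 ± 0.30 and -0.22 ± 0.30 (edgeR adjusted p of 0.857, 0.764 and 0.627). With the microglia clusters summed, 5.56%, 0% and 22.2% of 36 populations were called, and the microglia were not. They took 6.75% and 8.30% of the cells in controls, 6.49% and 7.81% in naris-occluded and 8.19% and 9.43% in trained libraries, with log2 differences of -0.07, 0.23 and 0.30 (adjusted p of 0.880, 0.729 and 0.389).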

How the data were processed

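Counts of UMIs per gene and cell barcode were made by the authors with Cell Ranger 2.0.0 on mm10 (per the labels' processing notes) from Chromium 3′ v2 libraries sequenced on a NextSeq500, and deposited without normalization in a single table. The deposited annotation gives each cell's library and cluster and its fraction of mitochondrial UMIs. By their numbers of cells, several clusters carry another number within their type there than in the study's own list (MicroG1 and MicroG2, and Mes1 and Mes2, are exchanged), and the names of the annotation were used. The authors kept cells with more than 200 genes, removed doublets and clustered with Seurat 2.2.1. Since doublets had been removed, no caller was run. The starts of the names of all 17275 trained cells are reversed against the library column, and the library column was used. A further 1123 barcodes have no cluster and entered no comparison.

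UMIs of a cluster were summed per library and divided by the library's total in that cluster to give CPM, with the SD over 6 libraries. Shares of cells were also computed after thinning to 500 UMIs. Limits for a gene without UMIs rest on 3 counts, and cover counting error only. Differences between conditions were tested on the summed counts in edgeR 4.0.16 (quasi-likelihood, TMM, filterByExpr, all 6 libraries in a single fit, Benjamini-Hochberg over all genes tested, adjusted p under 0.05), in R 4.3.3, with DESeq2 1.42.0 as an alternative. Numbers of cells were tested in the same way with the annotated cells as offset. The scripts were tested on simulated data. With 2 pools per condition, p-values measure the spread between these pools. Alternatives were another normalization, no filter, other libraries or cells in the fit, the replicate number as a block and leaving out each library. A left-out library leaves a condition with a single library, which is assumed to vary like the others.

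The text names the 8 members, the 3 genes closest to each, Lyz1, up to 4 leading genes of a marker list and the genes that check sex. S100a5, Calb2, Folr2, Timd4 and some of the genes that sort monocyte cluster cells fall outside this rule. Monocyte cluster cells were sorted after the data were seen, by 3 or more C1q UMIs, then by 10 or more neutrophil UMIs, 2 or more T and NK cell, B cell or monocyte gene UMIs, or 10 or more class II UMIs. The members, marker lists and tests were chosen with earlier results of these data known.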

Additional observations from a re-analysis of the deposited data

Results flagged for a closer look

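Barcodes that the authors left without a cluster held some of the members. In these 1123 barcodes (a median of 2327 UMIs) the level of Lyz2 was 173 CPM, on 522 UMIs in 222 barcodes, against 17.7 CPM in the 33 clusters other than the immune ones. Cd52 was at 42.4 CPM (128 UMIs) against 4.48 CPM, Pf4 at 7.95 CPM (24 UMIs) against 5.70 CPM, and Mrc1 at 2.65 CPM (8 UMIs) against 1.46 CPM. Of these barcodes 324 had 10 or more C1q UMIs, and they carried 498 of the 522 Lyz2 UMIs and 116 of the 128 Cd52 UMIs. A single barcode had 2 or more of the 6 border members. The barcodes stand out because no comparison used them, and why they were left out was not tested.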

How the results depend on the processing

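All 6 border members had a higher mean level in the macrophage than in the monocyte cluster under every alternative run for the levels. Members called were 0 or 1 in most fits. For trained against naris-occluded libraries in the macrophage cluster (1 called, Lyve1) the count was 0 in DESeq2, 0 in a fit of only the 4 libraries compared, 0 with the macrophage and monocyte clusters summed, and 0 to 2 when a library was left out, where 5 to 73 of all genes were called. For trained against control libraries there it was 1 with the replicate block and 0 to 1 when a library was left out (0 to 26 of all genes). In microglia it was 1 without the filter on low counts and 0 to 1 when a library was left out (0 to 38 of all genes), and in all annotated cells 0 to 2 (0 to 391 of all genes), each for trained against naris-occluded libraries. Why these counts move was not tested.

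Same-numbered libraries share a sex, the labels do not say whether they share animals, and with 2 per condition their deviations correlated at 0.0799 to 0.402. With the replicate block the genes called in the macrophage cluster were 5, 11 and 18 in place of 2, 0 and 3 for naris-occluded against control, trained against control and trained against naris-occluded libraries, and over all cells 12, 5 and 445 in place of 1, 1 and 79 (DESeq2 7, 25 and 222). Lyve1 was then called for trained against control (adjusted p = 0.00953) and trained against naris-occluded libraries (adjusted p = 9.73e-07). No filter gave 12, 22 and 21 genes in the monocyte cluster and 11, 30 and 42 in microglia in place of 0 in each.

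No change in the numbers of macrophage, monocyte or microglia cells was called under any alternative. The log2 difference of the monocyte cluster turned from -0.10 to 0.0492 without naris-occluded 1 between naris-occluded and control libraries (-0.27 to 0.0492 when a library was left out), from -0.32 to 0.0332 without trained 1 between trained and control libraries (-0.74 to 0.0332), and from -0.22 to 0.13 without trained 1 and to 0.0101 in cells with at least 1000 UMIs between trained and naris-occluded libraries (-0.64 to 0.13). For microglia between naris-occluded and control libraries it turned from -0.07 to 0.0832 without control 2 and to 0.0544 without naris-occluded 1 (-0.21 to 0.0832). Levels moved by more than their SD in 7 cases, among them Cd163 in the monocyte cluster, at 11.9 CPM in controls only against 41.4 CPM. The 52 UMIs of Cd163 and 4 of Lyve1 in the monocyte cluster and the 572 macrophage cluster cells limit what these libraries can show.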

Other observations

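Cd163 and Lyve1 in the macrophage cluster were also compared between cells with and without other border macrophage genes, as a description with no test. Folr2, the folate receptor of tissue macrophages, was detected in 219 of its cells, and Cd163 was found in 56.6% of these and in 31.7% of the other 353, at 577 and 341 CPM, higher in 6 of 6 libraries. Lyve1 was found in 30.1% and 16.4% of the same cells, at 225 and 187 CPM. The cells with Folr2 were deeper, with a median of 2150 against 1224 UMIs. Timd4, a receptor for dying cells, was detected in 59 cells, where Lyve1 was at 224 CPM against 202 CPM in the others. It was found more often there in 2 of 6 libraries, and the cells with Timd4 were deeper, with a median of 2181 against 1532 UMIs.

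In the monocyte cluster, 67 cells had 3 or more C1q UMIs but few class II UMIs. Their level of Ms4a7 was 898 CPM against 493 CPM in the 281 cells with both, while Mrc1 was at 239 against 385 CPM and Pf4 at 913 against 1047 CPM.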
